A study of Mus musculus with 5 samples.

Results

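The 36 genes described here encode enzymes and membrane proteins of the lysosome, with 2 transcription factors of the Tfeb family, and all 36 were found among the 22869 gene symbols of the count table. They were taken by symbol from a list of names. Each was represented by its transcript row with the highest mean count over all 5 libraries. A choice arose only for the 6 genes with several rows. Those rows were nearly alike, with a lowest over highest mean count from 0.9907 (Tfeb) to 0.9999 (Lipa). By role the 36 genes were 11 proteases, 13 enzymes of glycan breakdown, 7 enzymes and carriers of lipid breakdown, 3 membrane proteins and the 2 transcription factors. The mutant samples carried the genotype Dnmt1 L/L; VillinCre and the control samples, from littermates, Dnmt1 L/+; both were newborn mice on postnatal day 0. Dnmt1 is the enzyme that copies DNA methylation after replication, and VillinCre places the recombinase in the gut epithelium, so that other cell types keep the gene. RNA came from intervillus cells of the proximal jejunum cut out by laser, and mutant areas were picked as Ki67-negative where control areas were Ki67-positive. Genotype and this choice of areas therefore cannot be told apart in any comparison below.

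Lysosomes are acidic compartments in which hydrolases break down proteins, glycans and lipids delivered by endocytosis and autophagy. Most soluble hydrolases carry a mannose 6-phosphate tag and are sorted to the lysosome from the Golgi, and membrane proteins such as Lamp1 line its limiting membrane. TFEB and TFE3 are basic helix-loop-helix factors that bind E-box motifs near the starts of many lysosomal genes. In suckling rodents the absorptive cells of the small intestine take up milk proteins by endocytosis and digest them in lysosomes.

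The libraries were 2 mutants, numbered 4 and 6, and 3 controls, numbered 1 to 3. With 1 row per gene, mutants 4 and 6 held 8730268 and 10260760 reads and controls 1, 2 and 3 held 13356901, 13101286 and 10530200. No pair of libraries of a group agreed within sampling noise, with a chi-square per gene of 9.94 between the mutants and 14.6 to 25.2 between controls. Dnmt1 was 37.8 and 40.5 CPM (counts brought to a common library size by TMM) in mutants 4 and 6, against 123, 128 and 95.1 CPM in controls 1, 2 and 3 (log2 fold change -1.56, SE 0.16, edgeR adjusted p = 3.74e-05). Mki67, which encodes the protein the areas were picked on and is no finding here, was 511 and 506 CPM in the mutants, against 927, 1022 and 773 CPM in the controls. The mutants held 4 and 3 reads of the Y-linked genes Ddx3y, Eif2s3y, Kdm5d and Uty, against 3160, 2900 and 2710 in the controls. Xist had 10179 and 8277 reads in mutants 4 and 6, against 66, 72 and 42 in controls 1, 2 and 3. Every difference below is therefore also one between libraries high in Xist without Y-linked transcripts and libraries low in Xist with them. Of 6 epithelial markers, all were detected in each library, with a summed level of 3761 and 3618 CPM in the mutants and 3588, 3858 and 3813 CPM in the controls. Of these markers the keratin gene Krt18 rose (log2 fold change 0.79, edgeR adjusted p = 0.00255; not without mutant 4), while Epcam and Krt19 had both mutants below all controls without passing (-0.22 and -0.23). The labels do not say that each library is a separate mouse, so the p-values rest on a spread among libraries that may be technical.

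Promoter sequences were searched for the E-box letters, a motif that factors of the Tfeb family can bind, and are shown for those members that rose and hold it. RefSeq promoters of the mouse build GRCm38.p6, running from 250 bases before to 50 bases after a start, were at hand for 32 of the 36 members (38 promoters; Ctsb, Ctsh, Asah1 and Npc1 had no entry). The motifs searched on both strands were the E-box CACGTG, its longer form TCACGTG and a still longer form that extends TCACGTG on both sides. Every match of a longer form also holds CACGTG. The 6 members called higher in mutants that held CACGTG before a start are printed 5′ to 3′ on the gene's strand, bases before the start only. Capitals mark CACGTG with the neighbouring T or A where present.
Ctsa: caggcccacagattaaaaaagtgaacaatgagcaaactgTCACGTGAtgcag
Ctsd: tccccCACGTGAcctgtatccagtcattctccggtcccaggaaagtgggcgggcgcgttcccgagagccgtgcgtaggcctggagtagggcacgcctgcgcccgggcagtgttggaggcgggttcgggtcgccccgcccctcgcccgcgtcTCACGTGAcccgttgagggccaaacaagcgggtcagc
Ctsl: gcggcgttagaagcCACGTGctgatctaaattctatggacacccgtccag
Gaa: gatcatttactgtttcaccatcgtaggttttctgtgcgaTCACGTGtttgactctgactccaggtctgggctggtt
Lamp1: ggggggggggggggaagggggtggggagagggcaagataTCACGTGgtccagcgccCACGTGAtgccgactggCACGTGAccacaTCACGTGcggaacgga
Lgmn: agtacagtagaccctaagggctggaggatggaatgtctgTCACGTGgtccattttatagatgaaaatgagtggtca

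The windows lie at chr2:164833721-164833772 (plus strand, Ctsa), chr7:142387890-142388077 (minus strand, Ctsd), chr13:64370721-64370770 (minus strand, Ctsl), chr11:119267783-119267858 (plus strand, Gaa), chr8:13159060-13159160 (plus strand, Lamp1) and chr12:102439106-102439181 (minus strand, Lgmn). Lamp1 had 4 E-boxes in its last 101 bases before the start, the nearest with 9 bases between motif and start, and the E-box of Ctsa left 5 bases. CACGTG was found in 11 of 38 member promoters (28.9%), against 2349 of all 32851 promoters (7.15%). TCACGTG was found in 9 of 38 (23.7%), against 3.77% of all promoters. The longest form searched was found in 0 of 38 member promoters, against 107 of all 32851 promoters (0.326%). By call, CACGTG was in 6 of 13 promoters of members called higher (46.2%) and in 5 of 25 promoters of members not called (20.0%). Counted by gene, it was in 6 of 11 members called higher and in 5 of 21 not called. Those of Lgmn and Ctsa came from 1 of 2 starts each. Fuca2, Neu1, Gusb, Hexa and Lipa also rose and held no CACGTG in these windows. Arsa, Ctsf, Glb1, Naglu and Sgsh held CACGTG and did not pass the test. The median number of CpG sites was 13.5 in the member promoters and 7.0 over all promoters, and CACGTG itself holds a CpG. The set of all promoters came from 27025 genes, tested or not, and was not matched to the members in level or CpG content. A match of letters is a description of these windows and shows no binding.

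Many lysosomal transcripts were higher in the mutant areas, and the size of the difference was uneven. Of the 36 members, all of which passed the filter on low counts, 13 rose, 0 fell and 23 did not pass the test (edgeR quasi-likelihood test, Benjamini-Hochberg adjusted p under 0.05 over all 19353 rows tested); over the 14572 genes tested, 6.11% rose and 4.17% fell, 10.3% in all. The list was put together with earlier results of these data known, so its count is a description and not independent evidence of its direction. The median log2 fold change, mutant over control, was 0.44 over the members and -0.01 over all genes tested, and 33 of the 36 members had a value above 0; values after ± below are standard errors of log2 fold changes. At an unadjusted p under 0.05 there were 23 members, all with higher levels in the mutants and 10 of them not called, where 13.6% of all genes had such a p with higher levels in the mutants and 25.6% in either direction. Both mutants lay above all controls in 22 members and below them in 0, where the share over all genes was 21.7% above and 21.8% below, 43.6% in all. Leaving out control 1, 2 or 3 gave 8, 18 or 13 rises, where 3.74%, 7.32% or 6.41% of all genes rose. Leaving out mutant 4 or 6 gave 6 or 7 rises, where 2.67% or 3.56% of all genes rose, and a fit with 1 mutant assumes that it varies like the other libraries. Without each of the 5 libraries in turn, Ctsh, Ctsl, Lgmn, Neu1, Gusb and Fuca2 still passed. On deposited FPKM tested with limma, 1 member (Ctsh) rose with a pseudocount of 1, 2 with 0.1 and 6 with a pseudocount of 1 and a mean of at least 1 FPKM, where 0.476%, 0.761% and 2.08% of all genes rose.

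**Figure D1:**
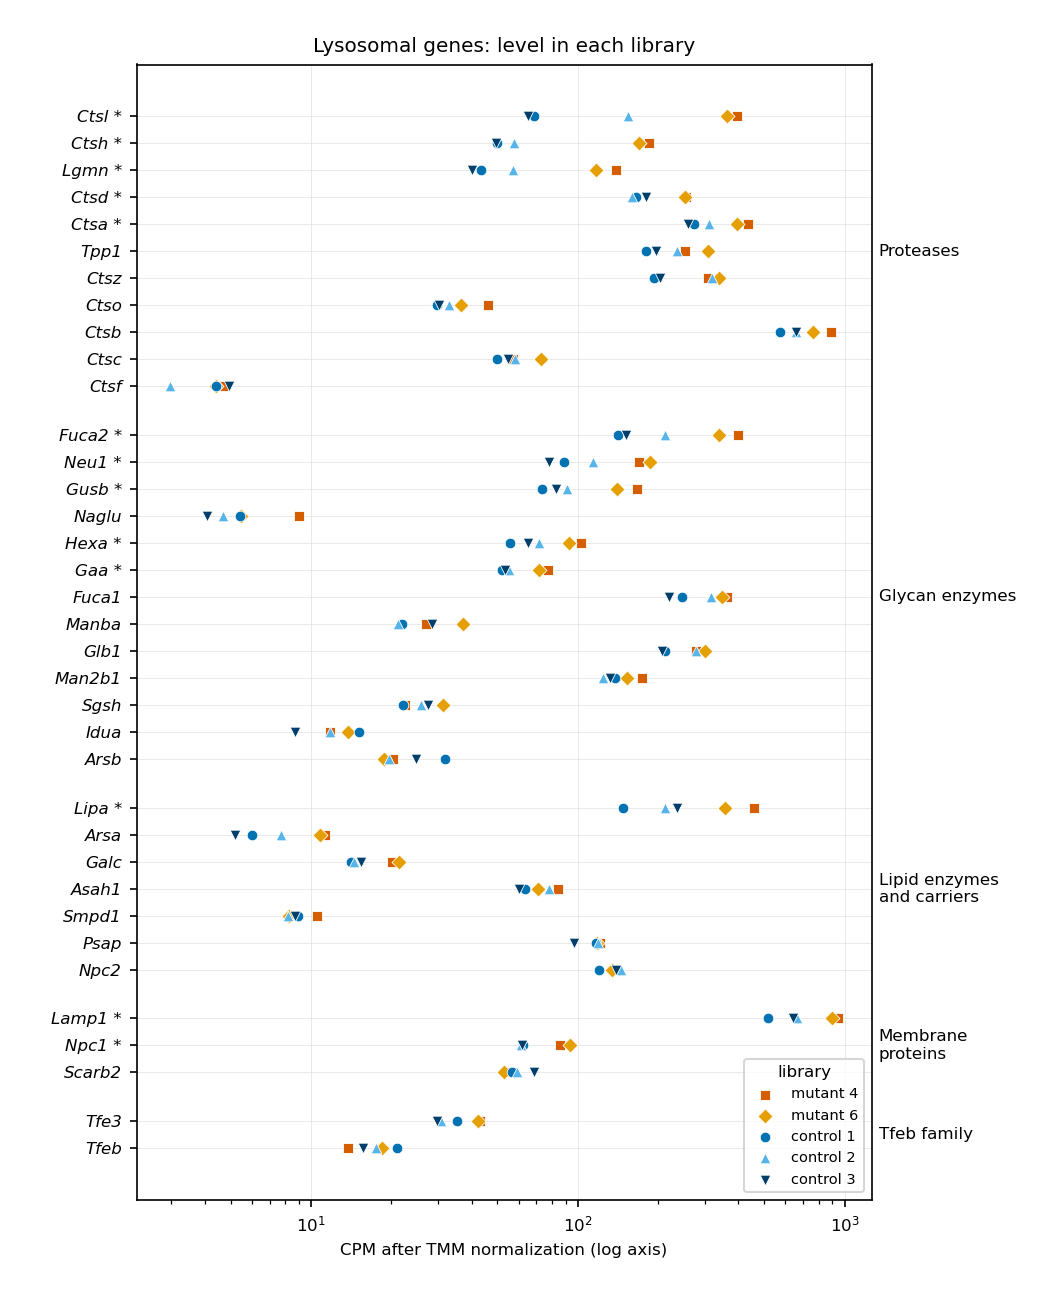
Level of each of the 36 lysosomal genes in mutants 4 and 6 and controls 1, 2 and 3, in CPM on a log axis, grouped by class and ordered by fold change; an asterisk marks the 13 genes with an edgeR adjusted p under 0.05. In Ctsl, Ctsh and Lgmn both mutants stand clear of all controls, while in Npc2 and Psap the libraries of the groups overlap.

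The proteases held the largest rises. Of 11, 5 rose and 6 did not pass, and all 11 had a log2 fold change above 0 (median 0.46); 3 rose without mutant 4 and 3 without mutant 6. Ctsl, an endopeptidase of endosomes and lysosomes, was 396 and 364 CPM in mutants 4 and 6, against 68.7, 155 and 65.3 CPM in controls 1, 2 and 3. Both mutants were above every control, with control 2 well above the other controls. The log2 fold change was 1.98 ± 0.28 (SE; 3.94-fold; edgeR adjusted p = 0.000564). On deposited FPKM with a pseudocount of 1 or 0.1, the rise of Ctsl missed the threshold (limma adjusted p = 0.150 and 0.0741). Ctsh, a cysteine protease that acts mainly as an aminopeptidase, was 185 and 170 CPM in the mutants, against 49.7, 57.5 and 49.6 CPM in the controls. Its groups were far apart and each was tight, and the change of 1.76 ± 0.13 log2 units (edgeR adjusted p = 1.63e-06) passed under all 16 alternatives. Lgmn, the asparaginyl endopeptidase that also trims other cathepsins, was 139 and 117 CPM in the mutants, against 43.5, 57.2 and 40.3 CPM in the controls. The groups did not overlap, and the log2 fold change was 1.45 ± 0.16 (2.73-fold; edgeR adjusted p = 7.16e-05).

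Ctsd and Ctsa rose less. Ctsd, the main aspartic protease of lysosomes, was 255 and 252 CPM in mutants 4 and 6, against 165, 160 and 180 CPM in controls 1, 2 and 3. The mutants were nearly equal and above all controls (log2 fold change 0.59 ± 0.12; edgeR adjusted p = 0.00851), and the call was lost without either mutant. Ctsa, a carboxypeptidase that also protects the sialidase Neu1 and the galactosidase Glb1 in a complex, was 436 and 396 CPM in the mutants, against 272, 309 and 259 CPM in the controls. The groups did not overlap (0.57 ± 0.13; edgeR adjusted p = 0.0145), but Ctsa no longer passed without control 1, mutant 4 or mutant 6. The annotated span of Ctsa overlaps that of Pltp, which rose too (log2 fold change 0.77; edgeR adjusted p = 0.0233), and the kit does not mark strand, so reads of overlapping stretches cannot be told apart.

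The remaining 6 proteases did not pass. Ctsz, a carboxypeptidase and the protease with the highest deposited FPKM, was 308 and 337 CPM in mutants 4 and 6, against 194, 318 and 203 CPM in controls 1, 2 and 3. Control 2 lay between the mutants, so the groups overlapped (0.44 ± 0.19; edgeR adjusted p = 0.162), and without control 2 Ctsz passed (edgeR adjusted p = 0.00437). Tpp1, a tripeptidyl peptidase, Ctsb, a cysteine protease, and Ctso had both mutants above all controls, with log2 fold changes of 0.46, 0.39 and 0.42 and edgeR adjusted p of 0.0682, 0.0886 and 0.112. Tpp1 passed without control 2. Ctsc, which activates serine proteases of immune cells, and Ctsf, at 4.54 CPM in the mutants and 4.10 CPM in the controls, had overlapping groups (0.26 ± 0.15 and 0.15 ± 0.34).

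Among the 13 glycan enzymes 5 rose, 0 fell and 8 did not pass (median log2 fold change 0.45), and 3 rose without control 1, without mutant 4 and without mutant 6. Fuca2, an alpha-L-fucosidase, was 398 and 337 CPM in mutants 4 and 6, against 141, 213 and 152 CPM in controls 1, 2 and 3. No control reached a mutant, and the log2 fold change was 1.12 ± 0.17 (2.18-fold; edgeR adjusted p = 0.000905). Neu1, the lysosomal sialidase, was 170 and 187 CPM in the mutants, against 88.7, 114 and 77.9 CPM in the controls. The groups were separate (0.93 ± 0.16; edgeR adjusted p = 0.002). Gusb, beta-glucuronidase, was 167 and 140 CPM in the mutants, against 73.7, 90.8 and 82.9 CPM in the controls. Here too the groups were separate (0.89 ± 0.14; edgeR adjusted p = 0.00108).

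Hexa and Gaa rose by smaller amounts. Hexa, the alpha subunit of beta-hexosaminidase, was 103 and 92.4 CPM in mutants 4 and 6, against 55.7, 71.8 and 64.8 CPM in controls 1, 2 and 3 (log2 fold change 0.61 ± 0.14; edgeR adjusted p = 0.0147). Gaa, the acid alpha-glucosidase that breaks down glycogen, was 77.3 and 71.4 CPM in the mutants, against 52.0, 55.2 and 53.2 CPM in the controls (0.48 ± 0.13; edgeR adjusted p = 0.0331). In both genes the mutants lay above all controls, and neither passed without control 1, mutant 4 or mutant 6.

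Fuca1, the second alpha-L-fucosidase and the glycan enzyme with the highest deposited FPKM, was 361 and 348 CPM in mutants 4 and 6, against 247, 315 and 220 CPM in controls 1, 2 and 3. Its mutants lay above all controls without passing (log2 fold change 0.45 ± 0.15; edgeR adjusted p = 0.0832), and it passed without control 2. Glb1, the beta-galactosidase held in the complex with Ctsa and Neu1, was 277 and 300 CPM in the mutants, against 213, 277 and 207 CPM in the controls. Mutant 4 and control 2 were at about the same level, and the log2 fold change of 0.31 ± 0.15 missed the threshold (edgeR adjusted p = 0.206; 0.0308 without control 2). Naglu, which trims heparan sulfate, had the second largest change among members that missed the threshold, with 9.02 and 5.48 CPM in the mutants, against 5.40, 4.68 and 4.08 CPM in the controls. Mutant 4 stood apart and mutant 6 was close to control 1 (0.61 ± 0.31; edgeR adjusted p = 0.232). The mannosidases Man2b1 and Manba had log2 fold changes of 0.31 and 0.43. Sgsh and Idua, which act on heparan sulfate, had 0.10 each, and Arsb, a sulfatase of dermatan sulfate, had -0.37, with edgeR adjusted p of 0.146 to 0.84 over these 5 genes.

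**Figure D2:**
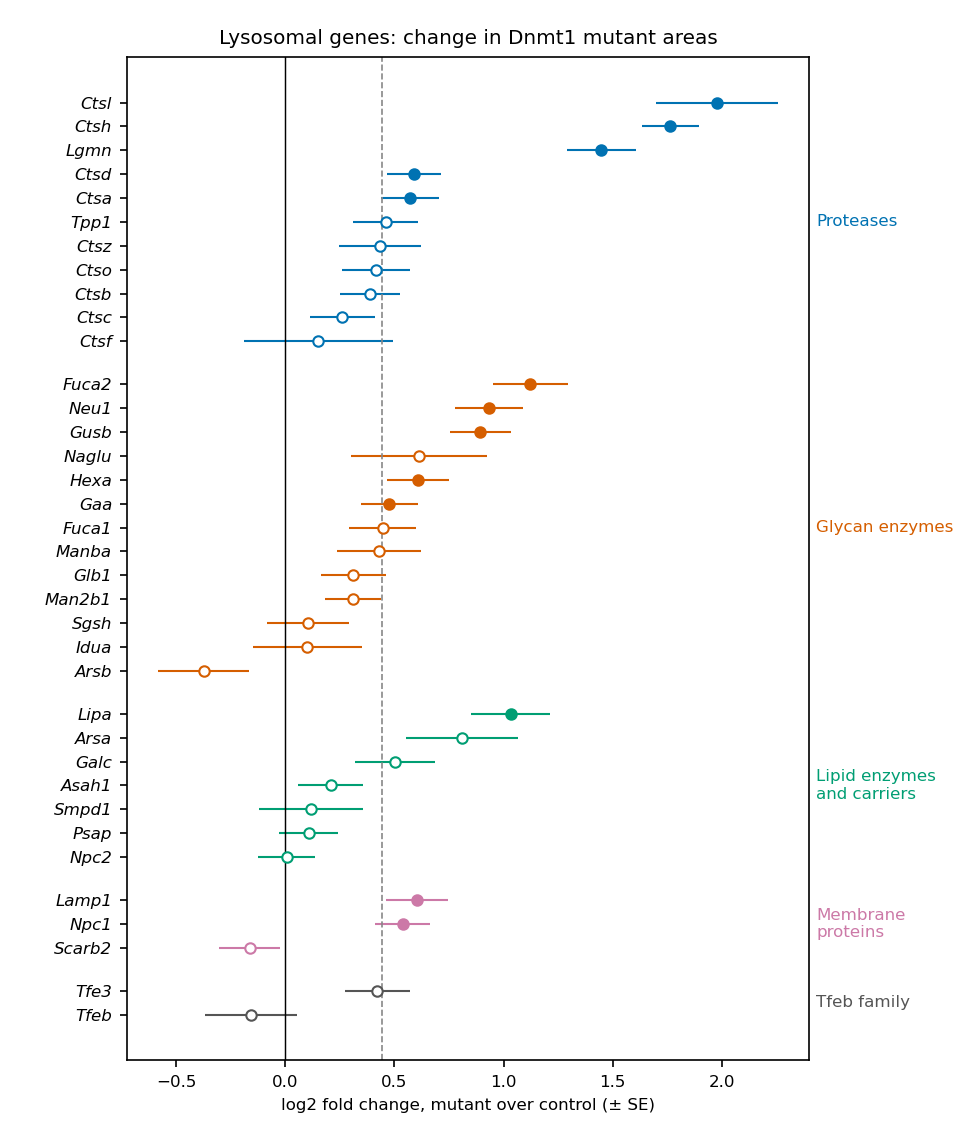
Log2 fold change, mutant over control, with its SE for each of the 36 genes, coloured by class; filled points have an edgeR adjusted p under 0.05 and the dashed line is the members' median of 0.44. Values run from 1.98 for Ctsl to -0.37 for Arsb, and no filled point lies below 0.

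Of the 7 lipid enzymes and carriers 1 rose, 0 fell and 6 did not pass (median log2 fold change 0.21); 0 rose without mutant 4 and 2 without control 2. Lipa, the acid lipase that frees cholesterol and fatty acids from lipoproteins, was 457 and 356 CPM in mutants 4 and 6, against 148, 212 and 236 CPM in controls 1, 2 and 3. Both mutants exceeded every control (1.03 ± 0.18; 2.04-fold; edgeR adjusted p = 0.00269), and the call was lost without mutant 4. Arsa, the sulfatase of sulfatide, had the largest change among members that missed the threshold, with 11.3 and 10.8 CPM in the mutants, against 6.00, 7.69 and 5.21 CPM in the controls. Its groups did not overlap (0.81 ± 0.26; edgeR adjusted p = 0.0624), and it passed without control 2. Galc, the galactosylceramidase, also had both mutants above all controls (0.50 ± 0.18; edgeR adjusted p = 0.099).

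The other sphingolipid and cholesterol genes did not pass, and their groups overlapped. Psap, the precursor of the saposins that help Galc, Arsa and Asah1 reach their lipids, was 121 and 118 CPM in mutants 4 and 6, against 117, 119 and 96.9 CPM in controls 1, 2 and 3 (log2 fold change 0.11 ± 0.13; edgeR adjusted p = 0.662). Npc2, the soluble carrier that hands cholesterol to Npc1, was 136 and 134 CPM in the mutants, against 120, 145 and 139 CPM in the controls (0.01 ± 0.13; edgeR adjusted p = 0.986). Asah1, acid ceramidase, and Smpd1, acid sphingomyelinase, had log2 fold changes of 0.21 ± 0.15 and 0.12 ± 0.24.

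Of the 3 membrane proteins 2 rose and 1 did not pass. Lamp1, an abundant glycoprotein of the limiting membrane, was 945 and 893 CPM in mutants 4 and 6, against 514, 661 and 640 CPM in controls 1, 2 and 3 (log2 fold change 0.60 ± 0.14; edgeR adjusted p = 0.0156). Npc1, the transporter that exports cholesterol from the lysosome, was 85.7 and 93.2 CPM in the mutants, against 62.3, 61.0 and 61.7 CPM in the controls (0.54 ± 0.13; edgeR adjusted p = 0.0154). In both the mutants lay above all controls, and both calls were lost without control 1, mutant 4 or mutant 6. Scarb2, the lysosomal membrane protein LIMP-2, was 56.9 and 52.8 CPM in the mutants, against 56.5, 59.3 and 68.5 CPM in the controls. Those groups overlapped (-0.16 ± 0.14; edgeR adjusted p = 0.5).

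Neither transcription factor passed the test with edgeR, DESeq2 or limma-voom, and 1 of them, Tfe3, had an unadjusted p under 0.05. Tfeb was 13.8 and 18.5 CPM in mutants 4 and 6, against 21.0, 17.5 and 15.6 CPM in controls 1, 2 and 3, and the groups overlapped (log2 fold change -0.16 ± 0.21; edgeR adjusted p = 0.686). Tfe3, which lies on the X chromosome, was 43.2 and 42.3 CPM in the mutants, against 35.2, 30.7 and 29.8 CPM in the controls. Its mutants were above all controls without passing (0.42 ± 0.15; edgeR adjusted p = 0.0905). These are transcript levels; where the proteins lie in the cell, which controls their activity, was not measured.

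Per transcript length, the members ranged widely in level. On deposited FPKM, averaged over the 5 libraries, Lamp1 was highest at 296, followed by Ctsz at 185, Ctsb at 139 and Fuca1 at 110, and Arsa was lowest at 1.88. The median level was 63.1 FPKM among proteases, 30.1 among glycan enzymes, 28.4 among lipid enzymes and carriers, 24.7 among membrane proteins and 8.82 in the Tfeb family. The median member called higher stood at percentile 93.3 of all genes tested by FPKM and the median member not called at percentile 64.0. Of the 23 members not called, 15 were nonetheless above the middle of all genes tested. The SE of the log2 fold change was larger in Arsa (0.26) and Naglu (0.31), the 2 lowest members, than in the called Gaa (0.13). The called Ctsl, at 96.2 FPKM, had an SE of 0.28, so a large SE was not confined to low members. A change of a given size is called less readily where the SE is larger, as in Arsa and Naglu. Ctsl was 171 and 172 FPKM in mutants 4 and 6, against 34.5, 74.6 and 28.8 FPKM in controls 1, 2 and 3, and control 2 was again the highest control.

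**Figure D3:**
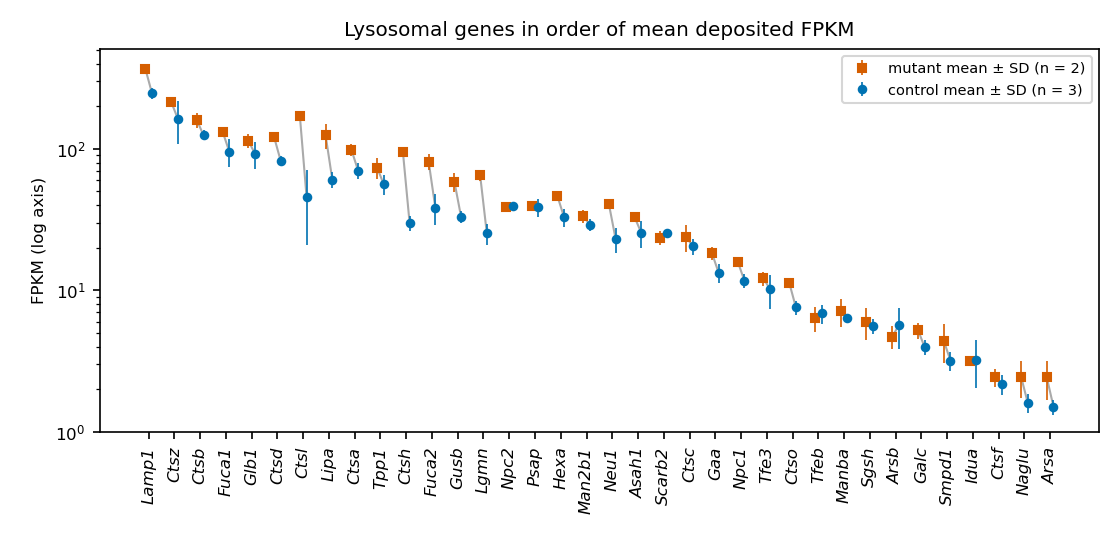
Deposited FPKM of the 36 genes on a log axis, mean ± SD over 2 mutant and 3 control libraries, ordered by the mean over all 5. The levels run from 296 for Lamp1 to 1.88 for Arsa, and the widest gaps between the groups are in Ctsl, Ctsh and Lgmn.

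The libraries of each group also differed among themselves in these genes. Control 2 was the highest control in 21 of 36 members, control 1 in 8 and control 3 in 7, and mutant 4 lay above mutant 6 in 25. The summed level of the 36 members was 6769 and 6370 CPM in mutants 4 and 6, against 3903, 4801 and 4200 CPM in controls 1, 2 and 3. By class, the mutant mean of the summed CPM over the control mean was 1.60 for proteases, 1.51 for glycan enzymes, 1.44 for lipid enzymes and carriers, 1.46 for membrane proteins and 1.18 for the Tfeb family.

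Among other genes of the pathway more rose than fell. Of 164 genes in 6 further lists, 159 were tested, of which 18 rose (11.3%) and 2 fell (1.26%), against 6.11% and 4.17% over all genes. Leaving out control 1, 2 or 3 gave 9, 26 or 14 rises and 1, 3 or 3 falls, and leaving out mutant 4 or 6 gave 4 or 7 rises and 1 or 0 falls. On the FPKM settings given above, in the same order, 0, 1 and 3 rose and none fell. Of 36 other hydrolases 7 rose and 0 fell (median log2 fold change 0.28; 3 rose without mutant 4 and 4 without mutant 6). They included the sulfatase Arsg (log2 fold change 1.29 ± 0.17), the hyaluronidase Hyal1 (1.26 ± 0.35), and the mannosidase Man2b2 (1.14 ± 0.16). Hyal1 stood at 7.78 and 6.02 CPM in mutants 4 and 6, against 3.85, 2.66 and 2.04 CPM in controls 1, 2 and 3, and passed neither without control 2 or 3 nor without either mutant.

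The proton pump that acidifies lysosomes, the V-ATPase, had 5 rises (25%, against 6.11% of all genes) and 0 falls among 20 subunits and accessory proteins tested. The median log2 fold change was 0.37, and the rises were led by Atp6v0a1 (0.83 ± 0.15), Atp6v1e1 (0.60 ± 0.14) and Atp6v0b (0.58 ± 0.14). On each FPKM setting the count of rises was 0. The count was 2 without control 1, 9 without control 2, 0 without mutant 4 and 1 without mutant 6. Subunits with tissue-restricted use, Atp6v0a4, Atp6v0d2, Atp6v1b1 and Atp6v1g3, did not pass the filter on low counts. Of 30 other membrane proteins 3 rose (10%) and 2 fell (6.67%), against 6.11% and 4.17% of all genes (median 0.24). The sialic acid exporter Slc17a5 rose by 1.00 ± 0.21 and the endolysosomal cation channel Tpcn1 by 0.63 ± 0.14, and the cation channel Mcoln2 had a log2 fold change of -1.14 ± 0.21. In that list 5 rose without control 2, 2 without control 1 and 1 without either mutant; 1 fell without control 1 or mutant 4 and 0 without mutant 6. Slc17a5 and Mcoln2 were lost without mutant 6 and Tpcn1 without mutant 4. The V-ATPase calls named were lost without mutant 4, Atp6v0b also without mutant 6 and Atp6v1e1 also without control 1 or mutant 6.

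Genes of sorting, of nutrient sensing at the lysosome and of autophagy each had a single rise, which is 6.67%, 5% and 2.63% of those tested, near or below the 6.11% of all genes. Of 15 sorting genes 1 rose, namely Grn (0.51 ± 0.15), which encodes progranulin, with a median log2 fold change of 0.08. Of 20 genes of the MiT/TFE and mTORC1 list 1 rose, namely Tfec (0.49 ± 0.14; edgeR adjusted p = 0.0395), a relative of Tfeb, with a median of 0.08. Tfec was 101 and 109 CPM in mutants 4 and 6, against 70.1, 86.2 and 68.7 CPM in controls 1, 2 and 3, and it passed without control 2 (where 2 genes of the list rose) but not without any other single library. Of 38 autophagy genes 1 rose, namely Gabarap (0.56 ± 0.13), a ubiquitin-like protein of autophagosome membranes, with a median of 0.10. The rise of Gabarap was lost without control 1 or either mutant and that of Grn without control 1, control 3 or mutant 4; 1 sorting gene fell without control 3 and 1 autophagy gene fell without control 2.

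**Figure D4:**
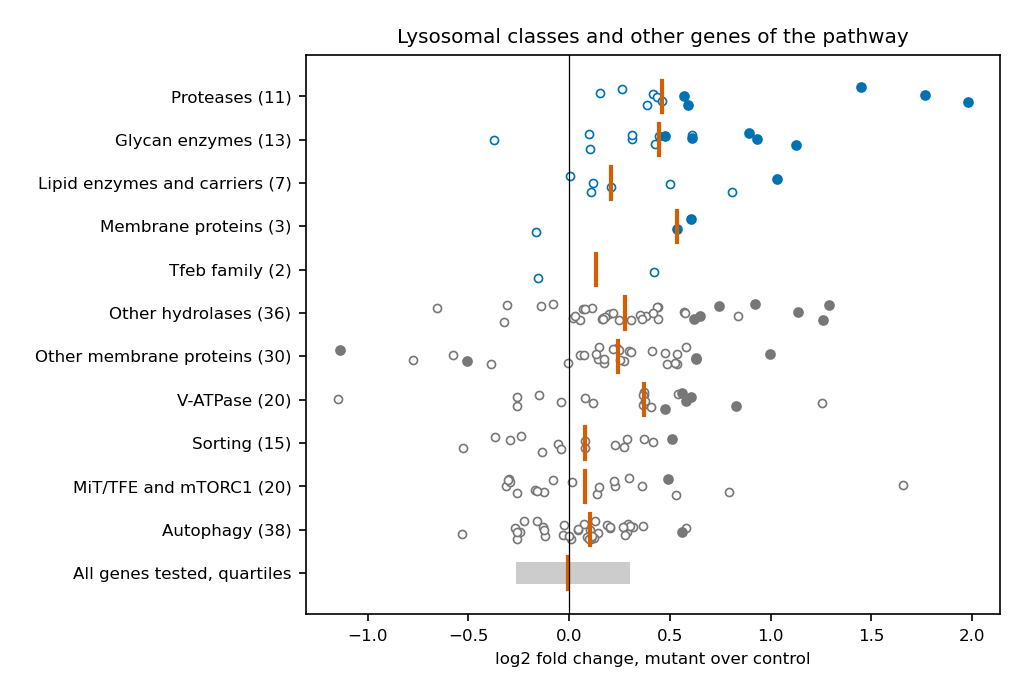
Log2 fold change, mutant over control, of every tested gene in the 5 classes of members (blue) and in 6 further lists (grey), with the number tested; filled points have an edgeR adjusted p under 0.05, orange bars are medians and the grey box spans the quartiles of all genes tested. Medians are 0.46 for proteases, 0.37 for the V-ATPase and 0.08 to 0.10 for sorting, MiT/TFE and mTORC1, and autophagy.

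The summed levels of macrophage, mesenchyme and endothelial markers were higher in both mutants than in all controls, as was that of the lysosomal genes. In bulk libraries a change in the number of cells of a type and a change in RNA per cell cannot be told apart. Of 20 macrophage markers tested 4 rose (20%, against 6.11% of all genes), among them Csf1r (1.54 ± 0.18), the receptor macrophages depend on, Mrc1 (1.37 ± 0.18) and Aif1 (1.09 ± 0.31). On the FPKM settings, in the order given above, 0, 0 and 3 macrophage markers rose, where 0.476%, 0.761% and 2.08% of all genes rose. The summed level of the list was 746 and 703 CPM in mutants 4 and 6, against 439, 507 and 438 CPM in controls 1, 2 and 3. None of its 21 genes was at 0 in any library, and Cd163 was too low to test; C1qa and Lyz2 had log2 fold changes of 0.11 and 0.26 and did not pass (edgeR adjusted p = 0.88 and 0.434). The list shares Ctss, Cd68 and Laptm5 with the lists of lysosomal genes, and those 3 did not pass. Its rises numbered 2 without control 1 and 2 without either mutant, and Aif1 passed without control 2 but not without any other single library. Of 13 mesenchyme markers 7 rose (53.8%, against 6.11% of all genes), led by Myh11, Acta2 and Pdgfra (0.75, 0.68 and 0.66). On each FPKM setting 0 mesenchyme markers rose. All 13 mesenchyme markers had both mutants above the controls, where the share over all genes was 21.7%. Their summed level was 2003 and 1862 CPM in the mutants, against 1217, 1322 and 1333 CPM in the controls, and 3 rose without control 1, 4 without mutant 6 and 0 without mutant 4. Of 8 endothelial markers 0 passed (median log2 fold change 0.34), 2 had an unadjusted p under 0.05 (25% of the list, against 25.6% of all genes), and 0 passed with DESeq2, with limma-voom or without any 1 library.

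Several markers of absorptive cells were higher in the mutants as well. Of 10 enterocyte markers 6 rose (60%, against 6.11% of all genes) and 0 fell. The 4 that did not pass were Anpep, Fabp1, Fabp2 and Lct. Of these the peptidase gene Anpep was lower in the mutants on average (-0.23 ± 0.15, edgeR adjusted p = 0.351). The rises were led by Sis (2.15 ± 0.23), Krt20 (1.57 ± 0.17) and Apoa4 (1.33 ± 0.20). The summed level of the list was 42234 and 43834 CPM in mutants 4 and 6, against 25644, 33363 and 20529 CPM in controls 1, 2 and 3. On the FPKM settings, in the order given above, 0, 1 and 1 enterocyte markers rose, where 0.476%, 0.761% and 2.08% of all genes rose. Sis and Apoa4 passed on none of these settings. Of 5 genes of endocytic uptake in newborn enterocytes 3 rose (60%, against 6.11% of all genes). On each of the 3 FPKM settings 0 of them rose, and the last setting tested 4 of the 5. Lrp2 (3.31 ± 0.33) encodes the receptor megalin, Fcgrt (1.00 ± 0.21) the neonatal Fc receptor and Cubn (0.84 ± 0.21) the receptor cubilin. Their summed level was 2113 and 2369 CPM in the mutants, against 1221, 1504 and 835 CPM in the controls. Enterocyte rises numbered 4 without control 1, control 3 or mutant 6, 8 without control 2 and 3 without mutant 4; in the endocytic list 5 rose without control 2, 2 without mutant 4 and 1 without mutant 6. Control 2 was the highest control in the summed level of both lists, as in that of the lysosomal members. The areas were chosen on Ki67, so markers of differentiated cells are not independent of that choice, and the part of any of these cell types in the lysosomal rise was not tested.

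**Figure D5:**
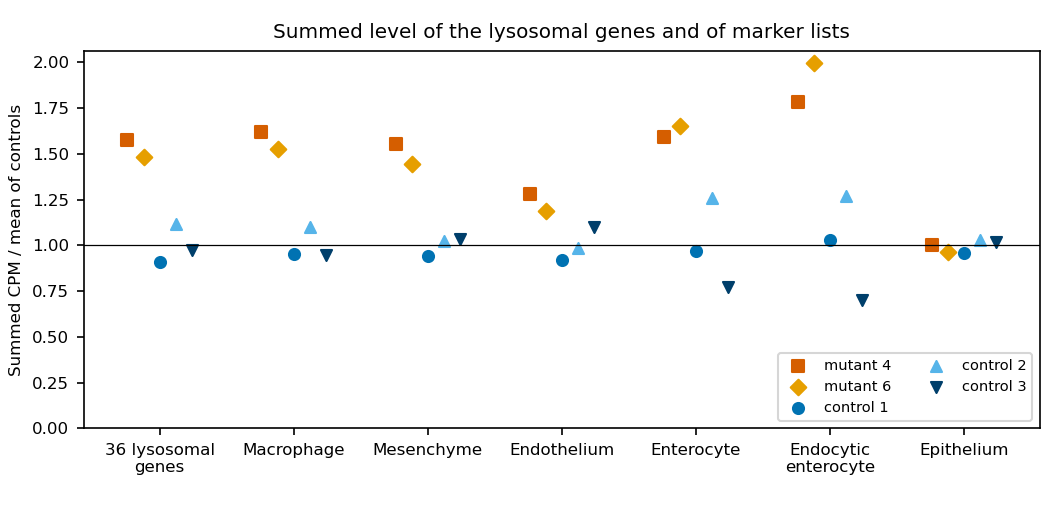
Summed CPM of the 36 lysosomal genes and of 6 marker lists in each library, divided by the mean of the 3 controls. Both mutants lie above all controls for every list except the epithelial markers, where the libraries range from 3588 to 3858 CPM.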

How the data were processed

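RNA-seq libraries of 2 mutant and 3 control samples were compared. Raw counts by RefSeq transcript were deposited, and FPKM (reads scaled to transcript length and library size) were deposited as well; per the submitters' processing notes, build mm9 and edgeR were used, with no aligner, counting program or version named in those notes. Each table has 28644 rows, with 0 per-sample columns left unmatched. Rows passing edgeR's default low-count filter were normalized by TMM and tested by edgeR 4.0.16 (R 4.3.3; quasi-likelihood), leaving 3 residual degrees of freedom without covariates, and p-values of 19353 rows were adjusted by Benjamini-Hochberg. SEs were derived from the log2 fold change and its F statistic. FPKM were tested as log2(FPKM + 1) or log2(FPKM + 0.1) with limma 3.58.1, which understates changes of low genes; DESeq2 1.42.0 was an alternative. Depth ran from 8730268 to 13356901 reads a library with 1 row per gene. Alternatives changed the normalization, filter, row choice, test, unit or libraries used. Members and lists were chosen with earlier results of these data known. By rule, levels in each library are given for members past the threshold, the member of highest FPKM per class, Tfeb, Tfe3, Lamp1, Npc1 and the 2 largest changes that missed it, and up to 3 called genes per other list are named with their log2 fold change. Levels of Glb1, Psap, Npc2, Scarb2 and Ctsf, and of Hyal1 and Tfec, were added after values were seen, as were the markers named that did not pass and the neighbour Pltp. Of the list entries, 4 were matched by an older symbol. Of the members, 15 overlap an annotated neighbour, 3 of them called, and strand of counting is not given. Single values of some genes in the other lists are not reported here.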

Additional observations from a re-analysis of the deposited data

How the results depend on the processing

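No lysosomal member fell, and the members' median log2 fold change stayed above 0, under all 16 alternatives. The count of 13 rises was 13 to 17 with another normalization, filter, row choice or count test, but 1, 2 and 6 on deposited FPKM (pseudocount 1, pseudocount 0.1, and pseudocount 1 with a mean of at least 1), where the shares over all genes also fell, to 0.476%, 0.761% and 2.08%; the cause was not tested. Leaving out 1 library gave 6 to 18 rises, where 2.67% to 7.32% of all genes rose. The median of 0.44 was 0.48 with upper-quartile normalization, 0.46 with a CPM of at least 5 in 2 libraries, 0.39 on FPKM with pseudocount 1, with or without the filter on the mean, and 0.40 to 0.51 without 1 library. For the other genes of the pathway, whose alternatives were chosen after seeing the data, the 18 rises became 0, 1 and 3 on the same 3 FPKM settings and 4 to 26 without 1 library. Their 2 falls became 5 with no filter, 4 with the edgeR exact test, 0 on each FPKM setting and 0 to 3 without 1 library. Of the members' single values under these alternatives, 512 kept their side of the threshold, 48 lost it, 15 gained it and 0 reversed. The smallest change among called members was 0.48 (Gaa), and 1 member dropped out of the filter at a CPM of 5. No paired analysis was possible because the groups share no replicate number.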
